A study of Mus musculus with 4 samples.

Results

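Imprinted genes were followed in eye tissue of mouse embryos by RNA sequencing of total RNA. The members were a named list of 39 genes, matched by symbol in the deposited tables. Of these, 37 were found among the 18702 genes listed, and the levels of H19 and Meg3 were not analysed here. By the allele described for each gene in the mouse, 21 of the 37 are paternally expressed, 14 are maternally expressed, and Grb10 and Gnas differ in the expressed allele between transcripts or tissues. The 4 libraries comprised 2 labelled KO, from Anp32b−/− embryos, and 2 labelled WT, from Anp32b+/+ embryos, all of strain C57BL/6. Anp32b encodes an acidic nuclear phosphoprotein that binds histones, and the labels name no driver that would limit its loss to a cell type. Stage, sex and how many embryos went into a library are not stated in the labels. It is also unstated whether replicate libraries came from different embryos, so the p-values below describe spread among these samples that may be technical.

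Imprinted genes are transcribed mainly or only from the copy inherited from 1 parent. For most of them the choice is set by DNA methylation laid down in the egg or sperm at imprinting control regions. This choice is kept through later cell divisions by factors such as the zinc finger protein ZFP57, which binds the methylated hexamer TGCCGC. Most imprinted genes lie in domains that hold genes of both parental kinds, and many are abundant in embryonic mesenchyme, muscle and neurons and act on growth. The values here are FPKM per gene, fragment numbers scaled to transcript length and library size. They hold no information on which parental copy was read, so each result below concerns the total level of a gene.

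The promoter windows of 5 members are shown because they carry the contrasts described below. They are RefSeq sequences of GRCm38.p6, 250 bases before to 50 bases after a start, read 5′ to 3′ on the strand of the gene, with TGCCGC or its reverse complement in capitals.
Peg3, chr7:6730370-6730669, minus strand, shared with Usp29: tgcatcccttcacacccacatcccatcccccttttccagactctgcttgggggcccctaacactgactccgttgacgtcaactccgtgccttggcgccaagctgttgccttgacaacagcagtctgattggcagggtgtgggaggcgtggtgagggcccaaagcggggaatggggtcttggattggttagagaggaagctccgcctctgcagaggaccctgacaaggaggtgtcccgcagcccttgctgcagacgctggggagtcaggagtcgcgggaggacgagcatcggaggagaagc
Dlk1, chr12:109452573-109452872, plus strand: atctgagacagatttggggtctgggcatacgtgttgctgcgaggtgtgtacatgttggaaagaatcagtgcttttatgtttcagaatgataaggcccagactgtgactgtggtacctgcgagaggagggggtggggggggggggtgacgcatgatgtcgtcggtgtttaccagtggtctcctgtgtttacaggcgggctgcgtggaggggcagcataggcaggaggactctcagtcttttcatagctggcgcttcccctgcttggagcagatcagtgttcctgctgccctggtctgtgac
Mest, chr6:30737800-30738099, plus strand: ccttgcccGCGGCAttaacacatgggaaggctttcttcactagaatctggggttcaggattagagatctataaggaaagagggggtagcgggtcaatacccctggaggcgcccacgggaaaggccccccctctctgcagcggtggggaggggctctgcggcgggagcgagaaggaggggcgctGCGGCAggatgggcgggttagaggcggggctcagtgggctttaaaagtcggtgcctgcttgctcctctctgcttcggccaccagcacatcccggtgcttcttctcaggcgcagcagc
Nap1l5, chr6:58907077-58907376, minus strand: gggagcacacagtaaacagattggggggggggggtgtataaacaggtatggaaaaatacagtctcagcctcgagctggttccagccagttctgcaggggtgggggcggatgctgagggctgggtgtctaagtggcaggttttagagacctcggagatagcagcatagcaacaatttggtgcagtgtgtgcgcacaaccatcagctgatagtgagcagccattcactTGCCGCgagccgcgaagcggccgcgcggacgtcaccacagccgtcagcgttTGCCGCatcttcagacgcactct
Nnat, chr2:157559828-157560127, plus strand: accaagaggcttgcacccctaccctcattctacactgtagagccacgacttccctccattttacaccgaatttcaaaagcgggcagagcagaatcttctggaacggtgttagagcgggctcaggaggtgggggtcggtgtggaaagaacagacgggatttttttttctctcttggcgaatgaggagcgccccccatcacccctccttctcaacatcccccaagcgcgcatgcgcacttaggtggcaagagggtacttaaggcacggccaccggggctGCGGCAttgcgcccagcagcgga

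The Peg3 window also holds the start of Usp29, which lies 164 bases away on the opposite strand, and 263 of its 300 bases belong to the Usp29 window too. Of the 39 genes on the list, 31 had at least 1 entry in the promoter table. TGCCGC, searched on both strands, was found in 10 of their 45 windows (22.2%), in 5 of 23 windows of paternally expressed genes (21.7%) and in 4 of 16 windows of maternally expressed genes (25.0%). It was present in 11.6% of all 32851 promoter windows, whose median GC content was 52.7%, against 57.7% in the windows of the members. Mest and Nap1l5 each had a window with 2 matches, and Nnat had 1. Meg3 also had 1, and its windows are among the 45. For Mest, 2 largely overlapping windows that hold the same matches are both counted among the 10. No match in a window says only that these letters are not in that stretch.

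Rtl1 is shown with the microRNAs that lie inside it, because their primary transcript runs opposite to it and reads of the antisense RNA could be counted for the gene. The RefSeq table placed 11 mature microRNAs from 6 hairpins on the opposite strand within the exonic sequence of Rtl1, and all 11 matched the Rtl1 transcript as exact reverse complements. These microRNAs are known in the mouse to be read from the maternal copy and to act on the paternal Rtl1 transcript. A mature strand of each hairpin follows with its seed, bases 2 to 8, in capitals, and no seed is shared.
mmu-miR-431-5p, chr12:109590459-109590479: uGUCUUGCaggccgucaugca
mmu-miR-433-3p, chr12:109591781-109591802: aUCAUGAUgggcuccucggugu
mmu-miR-127-3p, chr12:109592888-109592909: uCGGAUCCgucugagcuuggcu
mmu-miR-434-3p, chr12:109594565-109594586: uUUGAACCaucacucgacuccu
mmu-miR-432, chr12:109595006-109595028: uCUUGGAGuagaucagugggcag
mmu-miR-136-5p, chr12:109595331-109595352: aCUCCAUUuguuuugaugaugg

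Steps of the low FPKM values placed the depth at about 17700000 to 17960000 fragments per library. Anp32b, the targeted gene, stood at 94.53 and 92.67 FPKM in KO libraries and at 163.18 and 179.12 FPKM in WT libraries, lower in KO but far from 0. The labels do not say which part of the gene was deleted. The KO and WT libraries also differed in the genes of several cell types, each followed through a marker list. All 16 crystallins, the lens proteins, fell, and their summed level was 6097.3 to 6145.1 FPKM in KO libraries and 69496.2 to 69693.6 FPKM in WT libraries. Of 20 retinal markers 17 fell and 3 rose, with sums of 1109.9 to 1121.2 FPKM in KO and 1358.3 to 1370.4 FPKM in WT. All 16 skeletal muscle markers rose (3682.5 to 3757.1 FPKM in KO, 1784.9 to 1882.0 FPKM in WT), as did all 14 mesenchyme markers (3443.2 to 3452.7 FPKM in KO, 1568.2 to 1608.6 FPKM in WT). All 9 surface epithelium markers rose as well (1229.1 to 1233.8 FPKM in KO, 623.9 to 649.2 FPKM in WT), and of 7 erythroid genes tested 6 rose (sum over all 10, 9624.1 to 9948.0 FPKM in KO, 6280.3 to 6738.3 FPKM in WT). Apart from the embryonic globin Hbb-bh1, no marker was listed at 0 in any library. These shifts run alongside every result below, and their part in the changes of the imprinted genes was not tested. In a tissue sample, fewer cells of a type and less RNA per cell cannot be told apart.

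Most imprinted genes that changed were higher in KO. Of the 34 members with a mean of at least 1 FPKM, 20 rose and 3 fell (limma-trend on log2(FPKM + 1), adjusted p under 0.05 over all genes), and 11 did not pass the test. Among all 13887 genes tested, 33.5% were called higher and 21.1% lower, 54.6% in all. The median log2 fold change was 0.22 over the 34 members and 0.04 over all genes tested. A log2 rise of 0.5 or more was called for 12 members and for 11.7% of all genes tested, and one of 1.0 or more for 2 members, Dlk1 and Peg10, and for 1.52% of all genes. Both KO values lay above both WT values for 25 of the 34 members and below them for 6, against 45.6% of all genes tested above and 32.4% below, 77.9% in all. Of the 34, 4 had a WT mean under 1 FPKM and entered the test through their KO level, namely Klf14, Rasgrf1, Kcnq1 and Sfmbt2. Klf14 and Rasgrf1 are among the 12 with a called log2 rise of 0.5 or more. Of the other 30, 17 rose and 3 fell. With no filter on low values all 37 listed members were tested, and 19 rose and 3 fell, against 24.4% higher and 14.8% lower over all 18702 genes.

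**Figure D1:**
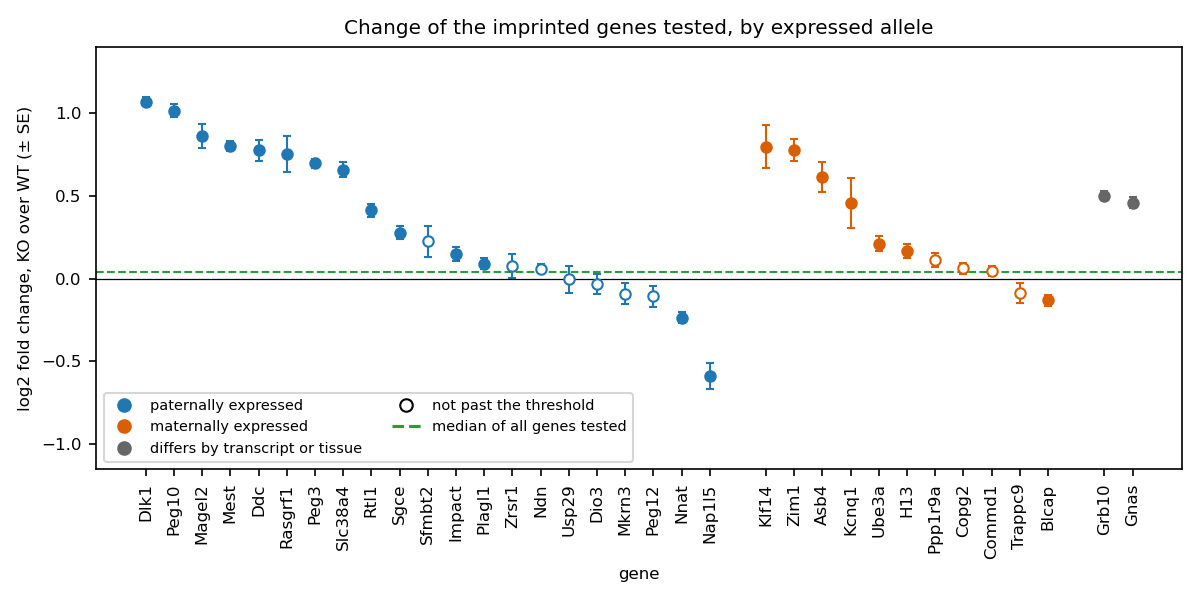
Log2 fold change, KO over WT, on the log2(FPKM + 1) scale with its SE from limma for the 34 imprinted genes tested, grouped by the expressed allele; filled points passed the test, open points did not, and the dashed line is the median of all genes tested (0.04). Paternally expressed genes run from 1.07 (Dlk1) to −0.59 (Nap1l5) and maternally expressed genes from 0.80 (Klf14) to −0.13 (Blcap).

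The paternally and maternally expressed groups overlapped widely. Of the 21 paternally expressed genes 12 rose and 2 fell, with a median log2 fold change of 0.23 and a range of −0.59 to 1.07. Of the 11 maternally expressed genes tested 6 rose and 1 fell, with a median of 0.17 and a range of −0.13 to 0.80. The mean of log2(FPKM + 1) over the paternally expressed genes was 4.31 and 4.30 in KO libraries and 3.98 and 3.98 in WT libraries. Over the maternally expressed genes tested it was 3.78 and 3.74 in KO libraries and 3.48 and 3.49 in WT libraries. In both groups of genes each KO library lay above each WT library. Over all genes tested 33.5% rose and 21.1% fell, with a median of 0.04, and their library means were not computed. The order of the libraries is therefore not read as particular to imprinted genes. Rasgrf1 and Sfmbt2 of the paternally and Kcnq1 and Klf14 of the maternally expressed genes entered the test through their KO level. Without genes whose imprint is described mainly in 1 tissue, the median was 0.12 over 18 paternally expressed genes and 0.78 over only 3 maternally expressed genes. Klf14, which entered the test through its KO level, is among these 3 and sets the upper end of the maternal range. The order of the group medians depends on which genes are counted. These are descriptions of a list chosen with results of these data known, and no test was made over the list.

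Levels spanned a wide range. Gnas was the most abundant member (mean of all libraries 741.9 FPKM), followed by Nnat (391.9 FPKM), Dlk1 (263.2 FPKM), Mest (198.7 FPKM), Grb10 (142.1 FPKM) and Ndn (112.7 FPKM), whereas 13 members had a mean under 5 FPKM. Among members with a mean of at least 5 FPKM, the SD between the libraries of a group was 2.05% of the mean at the median and 11.3% at most.

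**Figure D2:**
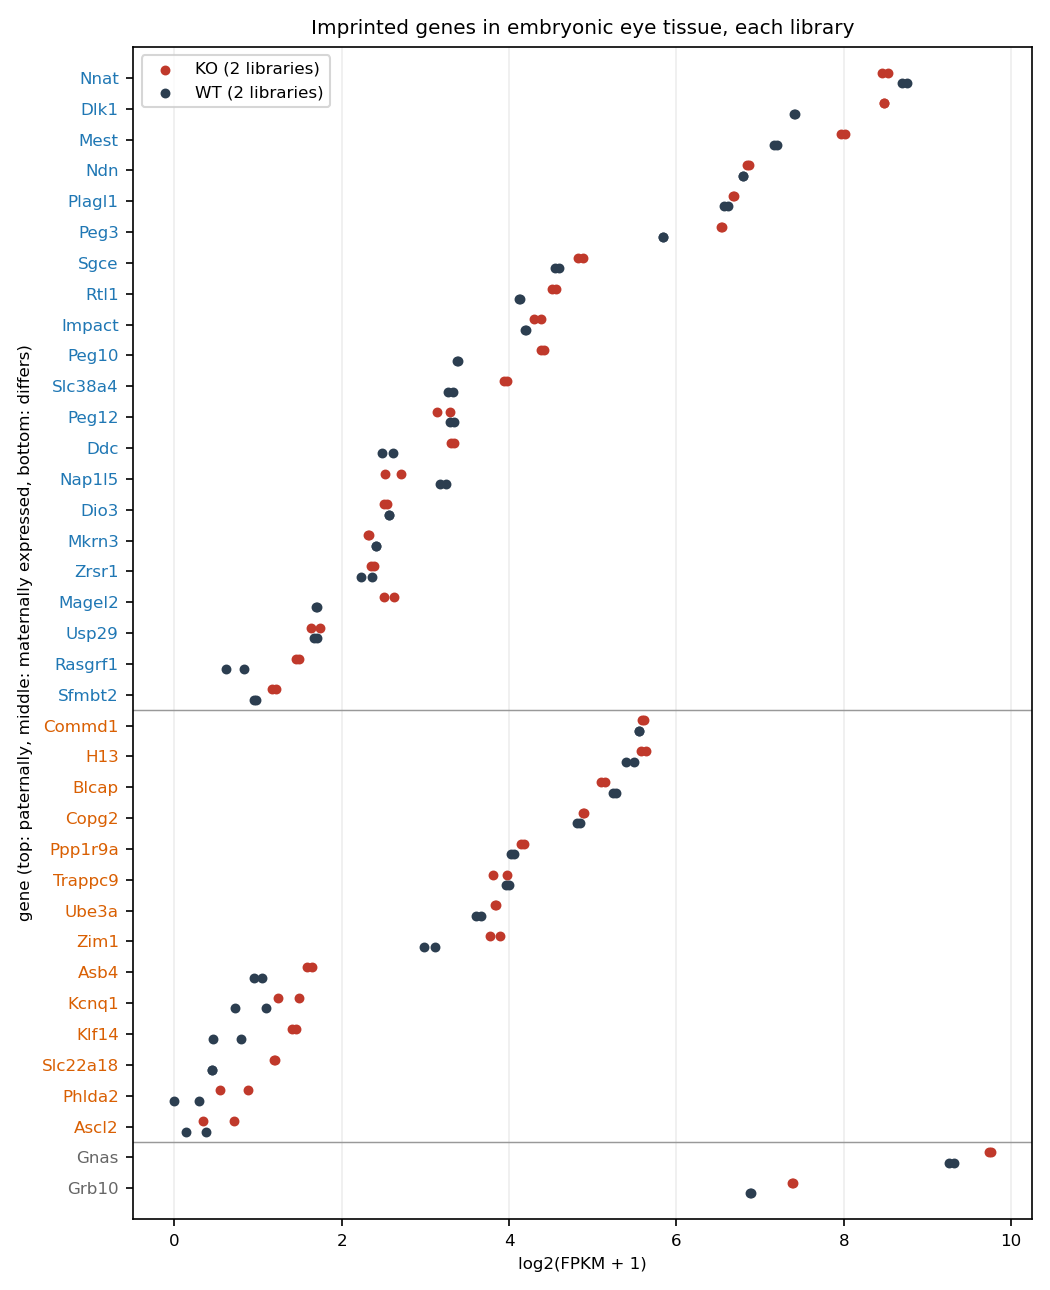
Level of the 37 imprinted genes in each library as log2(FPKM + 1), with KO points drawn above WT points in each row; gene names are blue for paternally expressed, orange for maternally expressed and grey for Gnas and Grb10. KO and WT points are clearly apart for Dlk1, Mest, Peg3 and Peg10, and they overlap for Zrsr1, Usp29, Trappc9 and Ascl2.

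On the log2(FPKM + 1) scale, Dlk1 and Peg10 had the largest rises among the paternally expressed genes. By the ratio of mean FPKM, Rasgrf1 (2.72-fold) and Magel2 (2.18-fold), both at low levels, stood above them. Dlk1 (Entrez 13386, GRCm38 chr12:109452823-109463336, plus strand), which encodes a transmembrane protein related to the Notch ligands and known from preadipocytes, stood at 356.15 and 357.53 FPKM in KO libraries and at 170.43 and 168.70 FPKM in WT libraries. The KO libraries lay far above the WT libraries, 2.1-fold in the mean, with a log2 fold change of 1.07 (SE 0.03, limma adjusted p = 6.98e-07). Peg10 (Entrez 170676, chr6:4747306-4760517, plus strand) comes from a retrotransposon and is needed in the placenta. It stood at 20.34 and 19.90 FPKM in KO libraries and at 9.52 and 9.36 FPKM in WT libraries, 2.13-fold higher in KO (log2 fold change 1.02, SE 0.04, limma adjusted p = 4.18e-06). Rtl1, the other retrotransposon-derived member, had 22.60 and 21.92 FPKM in KO libraries and 16.39 and 16.58 FPKM in WT libraries, 1.35-fold higher in KO (limma adjusted p = 0.000144). The labels do not say whether counting used the strand, so the antisense RNA that carries the microRNAs shown above could contribute to the value of Rtl1.

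A further 6 paternally expressed genes rose. Mest, Peg3, Magel2, Slc38a4 and Ddc did so by 1.63-fold to 2.18-fold, and Rasgrf1, which entered the test through its KO level, by 2.72-fold. Mest (chr6:30723547-30748465, plus strand), a protein of the alpha/beta hydrolase fold known as a mesoderm-specific transcript, had 248.68 and 256.81 FPKM in KO libraries and 146.40 and 142.77 FPKM in WT libraries (log2 fold change 0.80, SE 0.03, limma adjusted p = 3.23e-06). Its intron holds miR-335 on the same strand. Peg3 (chr7:6703892-6730431, minus strand), a zinc finger protein, had 92.13 and 91.28 FPKM in KO libraries and 56.18 and 56.11 FPKM in WT libraries (0.70, SE 0.03, limma adjusted p = 3.94e-06). In both genes the libraries of a group were close to each other and well apart from the other group. Magel2, of the MAGE family of ubiquitin ligase partners, had 5.17 and 4.68 FPKM in KO libraries and 2.27 and 2.24 FPKM in WT libraries, 2.18-fold higher in KO (limma adjusted p = 9.97e-05). Slc38a4, an amino acid transporter, averaged 14.6 ± 0.25 FPKM in KO and 8.86 ± 0.26 FPKM in WT (SD, n = 2 each), 1.64-fold higher in KO. Ddc, the aromatic amino acid decarboxylase of dopamine and serotonin synthesis, averaged 9.02 ± 0.20 FPKM in KO and 4.86 ± 0.36 FPKM in WT (SD, n = 2 each), 1.86-fold higher in KO. A paternal imprint of Ddc is described for a transcript of the embryonic heart, and the gene-level value does not separate transcripts. Rasgrf1, a RAS exchange factor, was low, with 1.75 and 1.81 FPKM in KO libraries and 0.78 and 0.53 FPKM in WT libraries, 2.72-fold higher in KO (limma adjusted p = 0.00119).

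Smaller rises were seen for Sgce, Impact and Plagl1. Sgce, the epsilon sarcoglycan, had 28.48 and 27.42 FPKM in KO libraries and 22.48 and 23.26 FPKM in WT libraries, 1.22-fold higher in KO (limma adjusted p = 0.00095). Impact, an inhibitor of the amino acid sensor kinase GCN2, averaged 19.3 ± 0.79 FPKM in KO and 17.3 ± 0.13 FPKM in WT (SD, n = 2 each; log2 fold change 0.15, limma adjusted p = 0.0233). Plagl1, a zinc finger transcription factor known to act on other imprinted genes, averaged 101.7 ± 0.33 FPKM in KO and 95.4 ± 2.48 FPKM in WT (SD, n = 2 each; 0.09, limma adjusted p = 0.0396). Neither Impact nor Plagl1 passed the test by median-of-ratios scaling (0.10 and 0.04) or when crystallin and erythroid genes were kept out of the scaling (0.07 and 0.01). Plagl1 was also not called with no filter on low values (0.09, limma adjusted p = 0.0568) or without KO replicate 1 (0.09), KO replicate 2 (0.09) or WT replicate 1 (0.07), with limma adjusted p of 0.151, 0.173 and 0.138. Impact was not called without KO replicate 2 (0.11), WT replicate 1 (0.155) or WT replicate 2 (0.14), with limma adjusted p of 0.139, 0.0766 and 0.0971.

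Only Nnat and Nap1l5 fell among the paternally expressed genes tested. Nnat (Entrez 18111, chr2:157560078-157562522, plus strand), a small membrane protein of neurons and endocrine cells, had 368.26 and 351.78 FPKM in KO libraries and 415.25 and 432.49 FPKM in WT libraries. It was 1.18-fold lower in KO (log2 fold change −0.24, SE 0.04, limma adjusted p = 0.00151). Nap1l5 (Entrez 58243, chr6:58905233-58907076, minus strand), of the nucleosome assembly protein family, had 4.74 and 5.56 FPKM in KO libraries and 8.01 and 8.46 FPKM in WT libraries, 1.6-fold lower in KO (−0.59, SE 0.08, limma adjusted p = 0.000683). Nap1l5 lies inside an intron of Herc3 on the opposite strand. Herc3, chosen for this position and not a member, had 6.62 and 6.94 FPKM in KO libraries and 7.50 and 6.49 FPKM in WT libraries, and its groups overlapped. The retinal marker sum was also lower in KO, and the part of the retina in the falls of Nnat and Nap1l5 was not tested.

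The remaining 7 paternally expressed genes did not pass the test. Ndn, the MAGE-family protein necdin of postmitotic neurons, had 115.69 and 114.25 FPKM in KO libraries and 110.29 and 110.38 FPKM in WT libraries (limma adjusted p = 0.108), close to each other although the groups did not overlap. Usp29, a deubiquitinase, had 2.11 and 2.34 FPKM in KO libraries and 2.19 and 2.27 FPKM in WT libraries. Dio3, the deiodinase that inactivates thyroid hormone, had 4.84 and 4.69 FPKM in KO libraries and 4.90 FPKM in each WT library. Log2 fold changes of the other members of this group were 0.23 for Sfmbt2, a Polycomb-group protein, 0.08 for Zrsr1, related to the splicing factor U2AF1, −0.09 for the RING finger protein Mkrn3 and −0.11 for Peg12, of the FRAT family of GSK3 binding proteins. Sfmbt2 was called higher with TPM (0.40) and with no filter (0.23), and Ndn with TPM (0.18).

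Among the maternally expressed genes tested, Klf14, Zim1 and Asb4 had the largest rises on the log2(FPKM + 1) scale. Zim1 (Entrez 22776, chr7:6671269-6696450, minus strand), a zinc finger protein next to Peg3, had 13.85 and 12.66 FPKM in KO libraries and 6.93 and 7.70 FPKM in WT libraries, 1.81-fold higher in KO (log2 fold change 0.78, SE 0.07, limma adjusted p = 9.55e-05). Klf14, a Krüppel-like factor without introns, had 1.74 and 1.65 FPKM in KO libraries and 0.38 and 0.74 FPKM in WT libraries (0.80, SE 0.13, limma adjusted p = 0.00204). Asb4, which has ankyrin repeats and a SOCS box, had 2.01 and 2.12 FPKM in KO libraries and 0.94 and 1.07 FPKM in WT libraries, 2.05-fold higher in KO (0.61, SE 0.09, limma adjusted p = 0.00129). The KO values of all 3 genes lay above their WT values, at levels that were low for Klf14 and Asb4. Klf14, with a WT mean of 0.56 FPKM, entered the test only through its KO level.

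Smaller changes were seen for Kcnq1, Ube3a, H13 and Blcap. Kcnq1, a voltage-gated potassium channel whose imprint is lost late in development, had 1.80 and 1.37 FPKM in KO libraries and 1.14 and 0.65 FPKM in WT libraries (log2 fold change 0.46, SE 0.15, limma adjusted p = 0.0382). Its call was lost without KO replicate 1 (0.34), KO replicate 2 (0.58) or WT replicate 2 (0.27), with limma adjusted p of 0.226, 0.0745 and 0.19, and also with no filter on low values (limma adjusted p = 0.0934). Ube3a, a ubiquitin ligase that is imprinted in neurons and overlaps the antisense RNA Snhg14, averaged 13.4 ± 0.09 FPKM in KO and 11.4 ± 0.36 FPKM in WT (SD, n = 2 each; 0.21, limma adjusted p = 0.00665). Without KO replicate 2 its limma adjusted p was 0.0531 (0.21). H13, the signal peptide peptidase, averaged 47.8 ± 1.58 FPKM in KO and 42.5 ± 2.14 FPKM in WT (SD, n = 2 each; 0.17, limma adjusted p = 0.0164). H13 did not pass without KO replicate 1 (0.20), KO replicate 2 (0.13) or WT replicate 2 (0.12), with limma adjusted p of 0.0545, 0.135 and 0.0909, nor when crystallin and erythroid genes were kept out of the scaling (0.09), by median-of-ratios scaling (0.12) or with no filter (0.17, limma adjusted p = 0.0511). Blcap, a small membrane protein, was the only maternally expressed gene tested that fell. It had 33.42 and 34.40 FPKM in KO libraries and 37.77 and 36.74 FPKM in WT libraries (−0.13, SE 0.04, limma adjusted p = 0.0158). Its call was lost with TPM (−0.01) and without KO replicate 1 (−0.11), KO replicate 2 (−0.15) or WT replicate 1 (−0.11), with limma adjusted p of 0.107, 0.0531 and 0.0796.

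The other maternally expressed genes did not pass or were not tested. Log2 fold changes were 0.11 for Ppp1r9a, the actin-binding neurabin (limma adjusted p = 0.0509), 0.06 for Copg2, a coatomer subunit, 0.05 for Commd1, a regulator of copper handling, and −0.09 for Trappc9, a subunit of a vesicle tethering complex. Although not called with FPKM, Ppp1r9a, Copg2 and Commd1 were called higher with TPM (0.24, 0.18 and 0.17). Slc22a18, an organic cation transporter, stood at 1.28 and 1.30 FPKM in KO libraries and at 0.37 FPKM in each WT library, 3.49-fold higher in KO but below the level tested. Without a filter its log2 fold change was 0.74 with limma adjusted p = 0.00133. Phlda2, a growth regulator of the placenta, stood at 0.46 and 0.84 FPKM in KO libraries and at 0.23 FPKM in 1 WT library, and was listed at 0 in the other. Ascl2, a bHLH factor of the trophoblast, stood at 0.64 and 0.27 FPKM in KO libraries and at 0.30 and 0.10 FPKM in WT libraries, and its groups overlapped.

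The members whose expressed allele differs between tissues or transcripts both rose. Grb10 (Entrez 14783, chr11:11930508-12038683, minus strand), an adaptor that restrains insulin and growth factor receptors, is read from the maternal copy in most tissues and from the paternal copy in neurons. It had 166.19 and 167.27 FPKM in KO libraries and 118.18 and 116.66 FPKM in WT libraries, 1.42-fold higher in KO (log2 fold change 0.50, SE 0.03, limma adjusted p = 1.25e-05). Gnas (Entrez 14683, chr2:174284320-174346744, plus strand) encodes the stimulatory G protein alpha subunit and further proteins from promoters with opposite imprints. It had 851.57 and 866.57 FPKM in KO libraries and 637.08 and 612.25 FPKM in WT libraries, 1.38-fold higher in KO (0.46, SE 0.03, limma adjusted p = 4.59e-05). The tables give 1 value per gene, so the maternal and paternal transcripts of Gnas cannot be separated, and reads of the antisense RNA Nespas may be included.

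In 3 pairs of neighbouring genes the changes were of unequal size. Ratios below are differences of log2(FPKM + 1) between the genes of a pair, which lie closer to 0 than ratios of plain FPKM where a gene is low. Peg3 and Usp29 start within the promoter window printed first, and Peg3 was 1.63-fold higher in KO, whereas Usp29 had a KO mean of 2.23 FPKM and a WT mean of 2.23 FPKM. The log2 ratio of Peg3 over Usp29 was 4.90 and 4.79 in KO libraries and 4.16 and 4.13 in WT libraries, a difference of 0.70 (exact permutation test over 4 libraries, two-sided p = 0.333, the smallest this design allows). This pair was chosen after its values were seen. Sgce and Peg10 are divergent genes whose annotated starts lie 99 bases apart, and the log2 ratio of Sgce over Peg10 was 0.47 and 0.44 in KO libraries and 1.16 and 1.23 in WT libraries, a difference of −0.74 (exact permutation p = 0.333). Mest over Copg2, whose ends share 912 exonic bases on opposite strands, gave 3.06 and 3.12 in KO libraries and 2.35 and 2.36 in WT libraries (0.74, exact permutation p = 0.333). In these 3 pairs the KO and WT ratios did not overlap.

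In the other 3 pairs the ratios of KO and WT libraries differed by 0.10 or less in the mean. The log2 ratio of Peg3 over Zim1, which have opposite imprints, was 2.65 and 2.76 in KO libraries and 2.85 and 2.71 in WT libraries, and the groups overlapped (difference −0.08, exact permutation p = 0.667). Nnat, nested in an intron of Blcap, gave a ratio over Blcap of 3.42 and 3.32 in KO libraries and 3.42 and 3.52 in WT libraries (−0.10, exact permutation p = 0.333). Both KO values lay below both WT values, although KO replicate 1 and WT replicate 1 were equal to 2 decimals. Nnat and Blcap were both called lower in KO, Blcap not with TPM. They are described with opposite imprints, that of Blcap mainly in 1 tissue. Zrsr1, nested in Commd1, gave a ratio over Commd1 of −3.23 in each KO library and −3.19 and −3.32 in WT libraries (0.03, exact permutation p = 1.0). In the Dlk1-Dio3 domain on chromosome 12 the KO over WT ratio of the means was 2.1 for Dlk1, 1.35 for Rtl1 and 0.972 for Dio3. In the Prader-Willi/Angelman domain on chromosome 7 it was 2.18 for Magel2, 1.17 for Ube3a, 1.04 for Ndn, 0.925 for Mkrn3 and 0.922 for Peg12.

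**Figure D3:**
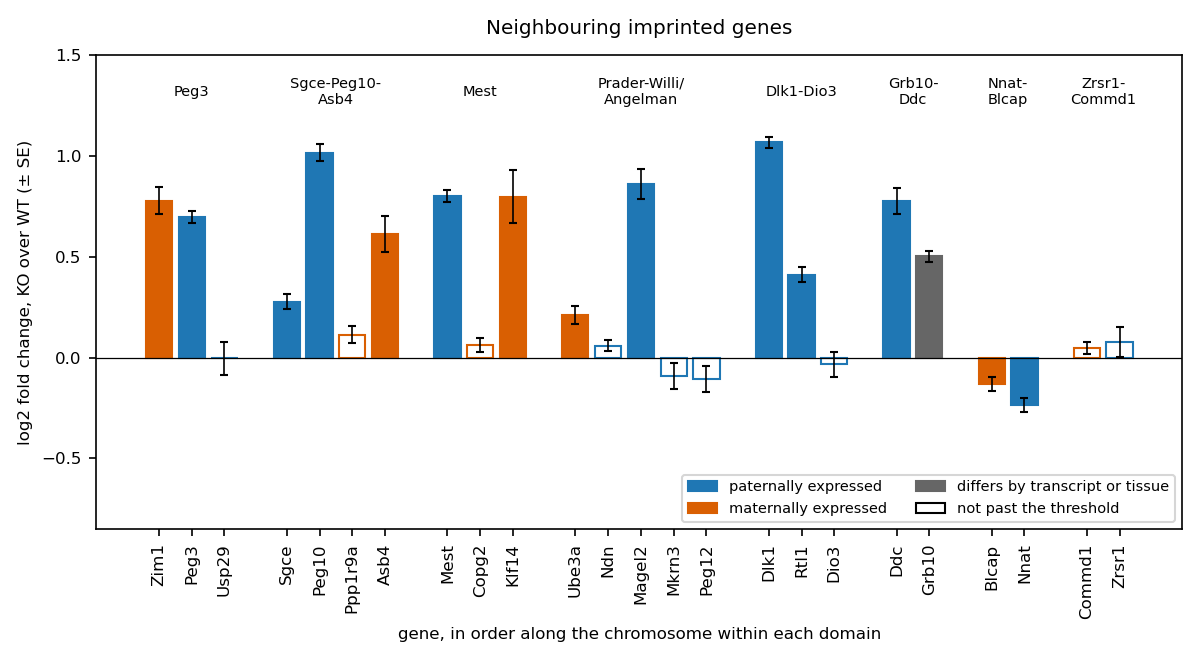
Log2 fold change, KO over WT, on the log2(FPKM + 1) scale with its SE for neighbouring imprinted genes, in order along the chromosome within each domain; filled bars passed the test, open bars did not, and colours give the expressed allele. Within a domain, called and uncalled genes stand side by side, as for Peg3 (0.70) and Usp29 (−0.003), or Magel2 (0.86) and Ndn (0.06).

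The scaling of the libraries moved the smaller changes. The median log2 fold change of all genes tested was 0.04 with FPKM, 0.16 with TPM, −0.01 by median-of-ratios scaling and −0.04 when crystallin and erythroid genes were kept out of the scaling. Relative to that median, the median of the members was 0.18, 0.24, 0.19 and 0.20 under these scalings in the same order. With TPM 26 of 35 members rose and 2 fell, and 47.8% of all genes were called higher and 11.4% lower, 59.2% in all. The member added with TPM was Slc22a18, which reached the level tested mainly through its KO values. By median-of-ratios scaling 17 of 34 members rose and 3 fell, and 27.9% of all genes were called higher and 27.3% lower, 55.2% in all. The same counts, 17 and 3 of 34, were found when crystallin and erythroid genes were kept out of the scaling, where 25.4% of all genes were called higher and 31.2% lower, 56.6% in all. Under all 4 scalings 17 members were called higher, and Nnat and Nap1l5 were called lower. The share of all genes called alike under all 4 was not computed, so nothing particular to the members is read from these counts. Klf14, Rasgrf1 and Kcnq1, among the 17, entered the FPKM test through their KO level. The 17 were Dlk1, Peg3, Peg10, Mest, Magel2, Rtl1, Sgce, Ddc, Slc38a4 and Rasgrf1 of the paternally expressed genes, Zim1, Asb4, Ube3a, Kcnq1 and Klf14 of the maternally expressed genes, and Grb10 and Gnas. Ndn, Copg2, Commd1, Dio3, Usp29, Peg12, Mkrn3 and Trappc9 changed sign between scalings.

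**Figure D4:**
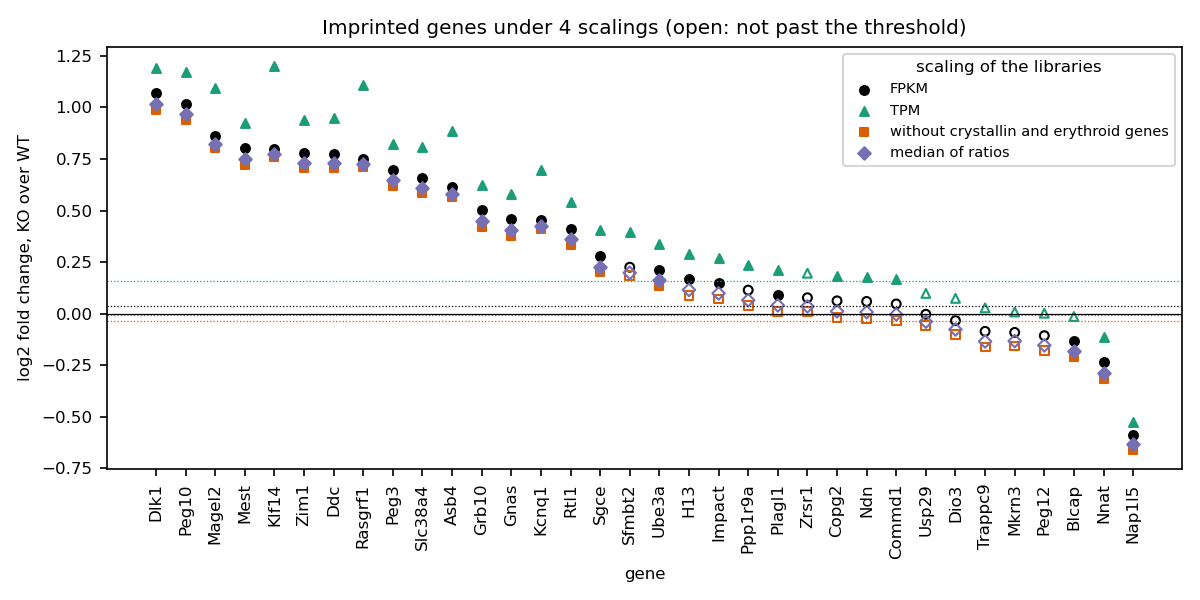
Log2 fold change, KO over WT, of the 34 imprinted genes under 4 scalings of the libraries; filled symbols passed the test, open symbols did not, and dotted lines are the medians of all genes tested under each scaling. Dlk1 stays between 0.99 and 1.19, whereas Ndn runs from −0.02 to 0.18 across 0.

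Other imprinted genes outside the list also changed in both directions. Of 30 written down, 23 were in the tables and 18 were tested, and 11 rose and 5 fell, with a median log2 fold change of 0.42. Over all genes tested 33.5% rose and 21.1% fell, with a median of 0.04, and nothing particular to the list is read from these counts. Igf2, the paternally expressed fetal growth factor, had 949.52 and 966.41 FPKM in KO libraries and 429.57 and 425.44 FPKM in WT libraries (1.16, SE 0.03, limma adjusted p = 6.98e-07). Igf2r, the maternally expressed receptor that clears it, had 32.53 and 32.70 FPKM in KO libraries and 21.24 and 20.81 FPKM in WT libraries (0.61). Cdkn1c, the maternally expressed cell cycle inhibitor, had 399.94 and 403.43 FPKM in KO libraries and 228.75 and 231.73 FPKM in WT libraries (0.80). Dcn, a collagen-binding proteoglycan of connective tissue imprinted in the placenta, rose by a log2 fold change of 1.07. Pon2 (−0.71), a lactonase, was lower, with 25.96 and 26.26 FPKM in KO libraries and 43.71 and 42.86 FPKM in WT libraries. Snrpn (−0.65), the paternally expressed splicing protein of the Prader-Willi/Angelman domain, was named after its values were seen and was lower too, with 23.12 and 24.57 FPKM in KO libraries and 37.96 and 38.07 FPKM in WT libraries.

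A list of genes of imprint maintenance and DNA methylation had a median log2 fold change of 0.00, against 0.04 over all genes tested. Of 20 written down 18 were tested, and 7 rose and 5 fell with FPKM, 10 rose and 2 fell with TPM, and 4 rose and 8 fell when crystallin and erythroid genes were kept out of the scaling. Of all genes 33.5% rose and 21.1% fell with FPKM, 47.8% rose and 11.4% fell with TPM, and 25.4% rose and 31.2% fell by that last scaling, so the counts of the list moved with those of all genes. Zfp57, the reader of the methylated hexamer marked in the promoter windows, had 41.76 and 42.49 FPKM in KO libraries and 29.88 and 29.86 FPKM in WT libraries (0.48, SE 0.03, limma adjusted p = 3.03e-05). Its corepressor Trim28, also named after its values were seen, had 113.27 and 115.39 FPKM in KO libraries and 117.54 and 115.06 FPKM in WT libraries, and its groups overlapped. Uhrf1 (−0.41) and Dnmt1 (−0.19), which copy DNA methylation at replication, and Hells (−0.30), a chromatin remodeller of DNA methylation, were lower. The call of Dnmt1 was lost with TPM (−0.07, limma adjusted p = 0.112). Tet2 (0.39), a methylcytosine oxidase, and Dnmt3a (0.21), a de novo methyltransferase, were higher.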

How the data were processed

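Eye tissue RNA was taken up in Trizol and sequenced from Illumina libraries, per the labels' protocols. The authors deposited, per library, FPKM values and TPM values for 18702 genes, per the file headers. Cufflinks, DESeq, HISAT2 and TopHat and the builds GRCm38 and GRCh38 are named, without roles, per the submitters' processing notes. Annotation, filters and strand use are unstated there. FPKM divides by all fragments of a library, so a fall of very abundant transcripts raises the values of others. The tables hold no counts. Steps of low FPKM values gave the depth, taken as the value that brought them closest to whole fragments. Only 60.3% to 65.4% of them lay within 0.15 of a whole fragment, so no count test was run. By chance 30.0% would do so at a depth fixed beforehand, and more at a depth chosen on the same values. Chi-square per gene between the libraries of a group was 1.65 in KO and 1.78 in WT at that depth, above counting noise, and both libraries were kept as replicates.

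Genes averaging 1 FPKM or more were fitted as log2(FPKM + 1) with genotype as the only term by limma 3.58.1 with its trend option, under R 4.3.3, KO minus WT, two-sided, with Benjamini-Hochberg adjustment over all 13887 genes and a threshold of 0.05. The pseudocount understates changes of genes at low levels. The fit was tested on simulated data. Members, allele groups and gene lists were chosen with earlier results of these data known. All members could be named, and of each other list the genes with the lowest p. Herc3, Snrpn, Trim28 and the Peg3 and Usp29 pair were added later, as were the promoter windows of Peg3 and Mest. Date-like symbols (26) were restored from Entrez numbers. Positions are from GENCODE M21 (GRCm38), sequences from RefSeq (GRCm38.p6). Alternatives were TPM, a pseudocount of 0.1, no filter, at least 5 FPKM in 2 libraries, the replicate block, other scalings, other allele groups, and omission of each library.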

Additional observations from a re-analysis of the deposited data

How the results depend on the processing

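Of the 23 imprinted genes called, 17 kept their direction and their side of the threshold in every alternative in which they were tested, and no called gene changed sign. The 6 that lost the call in at least 1 were Plagl1, Impact, Ube3a, Kcnq1, H13 and Blcap. Of the 17, Magel2, Asb4, Klf14 and Rasgrf1 were not tested over genes with at least 5 FPKM in 2 libraries. The share kept was not computed for all 7586 genes called, so 17 of 23 is not read as particular to imprinted genes. The number of imprinted genes called ran from 17 to 20 when 1 library was left out (the lone library of a group was then assumed to vary like the other group), as 5415 to 6225 of all 13887 genes were called in place of 7586, and it was 28 with TPM and 20 with either rescaling of FPKM. Maternally expressed genes called numbered 3 without KO replicate 2 (3 higher and 0 lower), and over the 4 omissions they ran from 3 to 6, with 3 to 6 higher and 0 to 1 lower. With TPM 10 of 12 maternally expressed genes tested were higher and 0 lower, where 47.8% of all genes were called higher and 11.4% lower. Slc22a18, not tested in the main fit, was among the 10. With 1.28 and 1.30 FPKM in KO libraries and 0.37 FPKM in each WT library, it reached the level tested mainly through its KO values. The median log2 fold change of paternally expressed genes was 0.40 with TPM, 0.29 with a pseudocount of 0.1, 0.35 over genes with at least 5 FPKM in 2 libraries, 0.18 when crystallin and erythroid genes were kept out of the scaling and 0.20 with median-of-ratios scaling. For maternally expressed genes it was 0.31 with TPM, 0.24 without a filter, 0.088 over genes with at least 5 FPKM in 2 libraries, 0.086 without crystallin and erythroid genes and 0.12 with median-of-ratios scaling. Without imprints described mainly in 1 tissue it was 0.12 for paternally and 0.78 for maternally expressed genes. Of these maternally expressed genes 3 of 3 were called, all higher and 0 lower, and Klf14 among them entered through its KO level. With Grb10 and Gnas counted as maternal the maternal median was 0.21. Without members that share exon bases with another gene the paternal and maternal medians were 0.28 and 0.36. There 1 paternally expressed gene was lower, and 4 of 6 maternally expressed genes were called, 3 of them higher, Klf14 included. Here fewer genes entered, and otherwise the cause was not tested. Over all genes tested 33.5% were called higher and 21.1% lower, and nothing particular to either group is read from these counts.

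With the replicate number as a block, 23 imprinted genes were called, 20 higher and 3 lower, and no call of a member changed. Over all genes 7828 were called with the block and 7586 without it. The labels do not state a pairing, and differences between the libraries of the KO and WT groups correlated at 0.044 across genes, so the libraries share only a number. The groups hold 2 libraries each, and values under about 1 FPKM rest on few fragments, which limits Slc22a18, Phlda2 and Ascl2. The same limit holds for Klf14, Rasgrf1, Kcnq1, Sfmbt2 and Asb4, which were tested with at least 1 WT value under 1 FPKM.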
